A study of Mus musculus with 8 samples.

Results

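The genes that make, clear, bind and sense retinoic acid were compared between mouse embryos lacking Isl1 and wild-type embryos, in dissected pharyngeal mesoderm with the heart. The genes were listed by symbol, and not by a cut on their values: Rdh10 and Aldh1a2 for synthesis, Dhrs3 for the return step, Cyp26a1, Cyp26b1 and Cyp26c1 for clearance, Crabp2 for binding, and the receptors Rara, Rarb and Rarg. These are 10 of the 20701 gene symbols in the table, and for each symbol the transcript with the highest summed read count was used. The tissue came from C57BL/6 embryos at E8.75 with 6 somites, 4 of genotype Isl1-/- and 4 wild-type, and each RNA-Seq library was made from 1 embryo. Isl1 encodes a LIM-homeodomain factor of cardiac progenitors, and the series asked what its loss does to gene expression in the forming heart. The labels did not describe the knockout allele. They gave polyA RNA as the molecule of 7 libraries and total RNA for knockout embryo 2. Values per embryo are given in the order of embryo number, 1 to 4.

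Retinoic acid is made from retinol in 2 steps. Rdh10 oxidises retinol to retinaldehyde, and Aldh1a2 oxidises retinaldehyde to retinoic acid. Dhrs3 works against Rdh10 by reducing retinaldehyde to retinol, and the Cyp26 enzymes break retinoic acid down. Crabp2 carries retinoic acid to the nucleus, where the receptors, bound to DNA as partners of the retinoid X receptors, change transcription. In the early embryo the signal is known to set the posterior limit of the second heart field and to pattern the inflow part of the heart, with Aldh1a2 made by the trunk mesoderm and Cyp26c1 by the anterior hindbrain and head mesoderm.

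Several genes of the pathway are themselves known targets of the receptors, and the element they bind is a direct repeat of a 6-base half-site. The promoter windows of RefSeq (GRCm38.p6, 250 bases before to 50 bases from each gene start) were searched on both strands for pairs of the half-site AGGTCA, allowing G in the first place and T in the third place, in the same direction with 1, 2 or 5 bases between them. Windows were found for 8 of the 10 genes, 14 windows in all, and those of Rarb and Cyp26a1 held a repeat with a spacing of 5. Of all 32851 windows, 0.0974% held a repeat with this spacing and 0.588% held any of them. Both repeats are shown, with half-sites in capitals, because a receptor gene and a clearance gene were the members that held one. A match is a description of the letters and not a measured binding site. The first base of the repeat lay 53 bases before the start of Rarb (chr14:16575493-16575549, minus strand) and 32 bases before the start of Cyp26a1 (chr19:37697756-37697812, plus strand), where the half-sites read on the opposite strand.
Rarb: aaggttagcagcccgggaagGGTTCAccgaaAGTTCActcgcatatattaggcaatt
Cyp26a1: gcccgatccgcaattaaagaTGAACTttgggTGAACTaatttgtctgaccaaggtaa

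The targeted gene agreed in direction with the labels in all 8 libraries. Isl1 was measured at 9.72 to 26.9 CPM, counts scaled to a library of 1000000 reads, in wild-type and at 1.78 to 2.40 CPM in knockout embryos, a log2 fold change of -3.00 (SE 0.36, edgeR FDR 0.0041). Libraries held 18916452 to 26153039 reads over the transcripts used. Markers of the named tissue were present: the summed level of 5 heart muscle markers (Tnnt2, Actc1, Myl7, Myh6 and Nkx2-5) was 2026 to 3143 CPM in wild-type and 1150 to 1671 CPM in knockout embryos, and 5 of 5 were past an FDR of 0.05. The 5 pharyngeal mesoderm markers summed to 43.3 to 73.9 CPM and 47.8 to 70.3 CPM, with Msc at 0.253 CPM or less. Markers of other tissues were present too: 5 neural tube markers summed to 235 to 277 CPM in wild-type and 239 to 336 CPM in knockout embryos, 5 somite markers to 52.5 to 94.5 and 67.7 to 104 CPM, 5 yolk sac endoderm markers to 349 to 3097 and 269 to 4552 CPM, and 5 blood markers to 356 to 2297 and 1220 to 3029 CPM, with none of these past the FDR and none at 0 in all libraries. Y-linked genes were read in wild-type embryo 4 and in knockout embryos 1, 3 and 4 and were at or near 0 in the others, which split the genotypes unevenly.

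None of the 10 genes passed the test over all genes. All 10 genes passed the filter on low counts. Of these, 0 passed an edgeR FDR of 0.05, against 0.973% of the 14075 genes tested, and 2 had an unadjusted p-value under 0.05, Cyp26b1 and Rdh10, against 17.4% of all genes. The study's methods state thresholds of at least 1.5-fold at an unadjusted p under 0.05, which the authors used with DESeq2. Under these thresholds on the edgeR values, 1 of 10 passed, Cyp26b1, against 3.93% of all genes. The Wald test of DESeq2, which called 709 of the 14075 genes where edgeR called 137, called 1 of 10, Cyp26b1, and limma called 0. The CPM values of the genotypes overlapped for each of the 10 genes, while they did not overlap for 10.3% of all genes. Estimates were higher in the knockout for 5 genes and lower for 5, with a median log2 fold change of 0.06 against 0.01 over all genes tested. In bulk tissue, fewer cells of a type and less RNA per cell cannot be told apart.

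**Figure D1:**
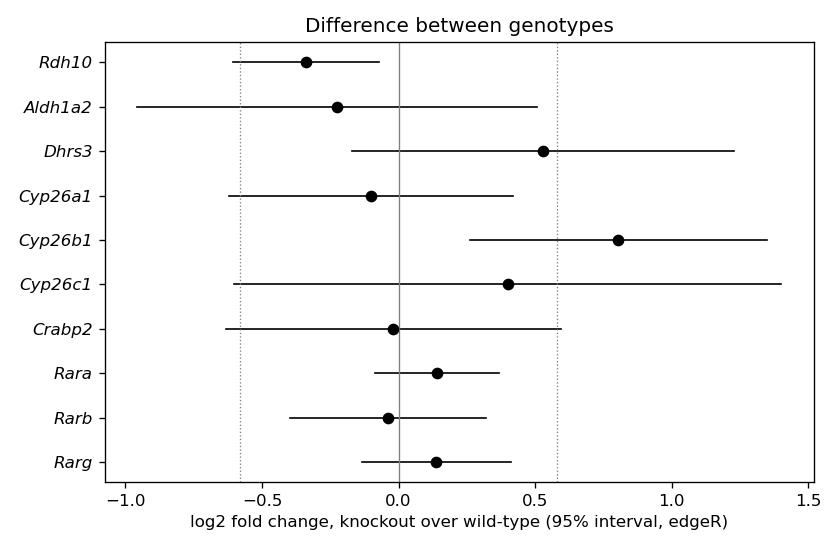
Log2 fold change, knockout over wild-type, of the 10 genes, with 95% intervals from edgeR (n = 4 embryos each); dotted lines mark a 1.5-fold change. The intervals of Cyp26b1 (0.26 to 1.35) and Rdh10 (-0.61 to -0.07) lie to one side of 0, and the other 8 cross it.

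Levels per transcript length were compared with the deposited RPKM (reads scaled by transcript length and library size). Crabp2 was by far the most abundant, at 277 ± 76.2 RPKM (SD over 8 embryos), and its lowest embryo (128 RPKM) was above the highest embryo of the next gene. Aldh1a2 followed at 17.1 ± 6.45 RPKM and Cyp26c1 at 11.5 ± 5.94 RPKM. The receptors were at 7.74 ± 1.35 (Rarb), 6.92 ± 1.03 (Rarg) and 6.21 ± 0.741 RPKM (Rara), with Rdh10 among them at 6.66 ± 1.14 RPKM. Cyp26a1 (4.21 ± 1.17 RPKM), Cyp26b1 (2.51 ± 1.004 RPKM) and Dhrs3 (2.06 ± 0.818 RPKM) were the lowest. Apart from Crabp2, the ranges of each gene and the next in this order overlapped.

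**Figure D2:**
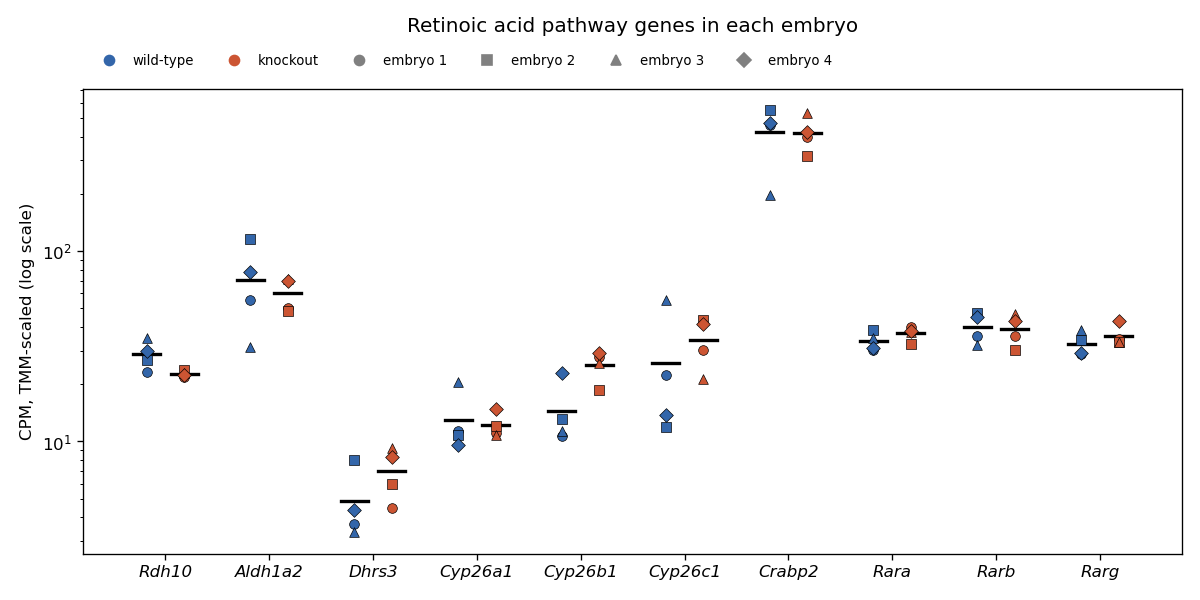
CPM (log axis) of the 10 genes in each embryo; colour gives the genotype, the shape of a point the embryo number and bars the group means. Groups overlap for every gene, wild-type embryos 2 and 3 (blue squares and triangles) lie far apart for Aldh1a2, Cyp26c1 and Crabp2, and the 4 knockout embryos lie close together for Rdh10.

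Of the synthesis genes, Rdh10 (NM_133832, chromosome 1, 16095855 to 16123815, mm9 for this and the following positions), the retinol dehydrogenase of the first step, was measured at 23.3, 26.7, 35.1 and 29.8 CPM in the wild-type and at 21.9, 23.7, 23.0 and 22.4 CPM in the knockout. The knockout embryos were all within the narrow band of 21.9 to 23.7 CPM, and only wild-type embryo 1 reached into it. The means were 28.7 ± 5.02 and 22.7 ± 0.764 CPM (SD, n = 4), and the log2 fold change was -0.34 (95% interval -0.61 to -0.07), with an unadjusted edgeR p of 0.0185 and an FDR of 0.197. Under the other settings tried the FDR of Rdh10 ran from 0.125 to 0.393.

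Aldh1a2 (NM_009022, chromosome 9, 71063596 to 71144050), the enzyme of the second step and the main source of retinoic acid at this age, was at 55.3, 116, 31.5 and 77.4 CPM in the wild-type. In the knockout it was at 50.2, 48.5, 71.6 and 69.8 CPM. The knockout values all lay inside the wild-type range, which spanned 3.69-fold between wild-type embryos 3 and 2. The log2 fold change was -0.23 (95% interval -0.96 to 0.51, edgeR FDR 0.763), which is a fold interval of 0.515 to 1.42. Its sign turned to 0.13 without wild-type embryo 2 (FDR 0.869), and it was -0.47 without wild-type embryo 3 (FDR 0.267).

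Dhrs3 (NM_011303, chromosome 4, 144482730 to 144518112), the reductase that returns retinaldehyde to retinol, was read 79 to 181 times per library and so was the least deeply counted of the 10. It was at 3.67, 8.03, 3.33 and 4.37 CPM in the wild-type and at 4.48, 5.97, 9.25 and 8.32 CPM in the knockout. Wild-type embryo 2 lay among the knockout embryos, and the other 3 wild-type embryos were below all 4 knockout embryos. The log2 fold change was 0.53 (95% interval -0.17 to 1.23, edgeR FDR 0.418). Without wild-type embryo 2 it was 0.88, past the 1.5-fold and unadjusted p thresholds, with an FDR of 0.202. The ratio of Rdh10 to Dhrs3 RPKM, the forward to the return step, was 2.48 to 7.86 in wild-type and 1.85 to 3.64 in knockout embryos, which overlapped.

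Among the clearance genes, Cyp26b1 (NM_175475, chromosome 6, 84521938 to 84543740) had the largest estimated difference of the 10 genes in the fit to all 8 embryos. Cyp26c1 had a larger one without wild-type embryo 3, and Dhrs3 without wild-type embryo 2. Both had a larger one with Y-linked reads as a term, and also without both wild-type embryos 2 and 3. Cyp26b1 was at 10.7, 13.2, 11.3 and 22.8 CPM in the wild-type and at 27.8, 18.5, 25.8 and 29.3 CPM in the knockout. Wild-type embryo 4 lay above knockout embryo 2, and the other 3 wild-type embryos lay below every knockout embryo. The means were 14.5 ± 5.65 and 25.3 ± 4.77 CPM (SD, n = 4), a 1.75-fold higher level in the knockout (95% interval 1.20 to 2.55), or 0.80 on the log2 scale. The unadjusted edgeR p was 0.00818 and the FDR 0.143. The Wald test of DESeq2 gave an adjusted p of 0.0209, edgeR without wild-type embryo 4 gave 1.11 (FDR 0.0287), and over all settings tried the adjusted p ran from 0.0209 to 0.355.

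The 2 Cyp26b1 values that made the groups overlap belonged to the embryos whose Y-linked reads differed from the rest of their genotype. The 4 embryos with Y-linked reads were at 22.8 to 29.3 CPM and the 4 without were at 10.7 to 18.5 CPM. With Y-linked reads, wild-type embryo 4 was at 22.8 CPM and the 3 knockout embryos averaged 27.6 CPM, a ratio of 1.21. Without them, the 3 wild-type embryos averaged 11.7 CPM and knockout embryo 2 was at 18.5 CPM, a ratio of 1.58. In the fit with Y-linked reads as a second term the log2 fold change of Cyp26b1 was 0.47 (unadjusted edgeR p 0.00452, FDR 0.214). This estimate lay below the 1.5-fold threshold while its unadjusted p lay under 0.05, and none of the 10 (0) met the study's thresholds. Each class held only 1 embryo of a genotype, so no test within a class was run, and genotype and Y-linked reads are told apart in this fit by those 2 embryos. Knockout embryo 2 was also the library labelled total RNA. Its summed yolk sac endoderm markers (4552 CPM) and blood markers (3029 CPM) were the highest of all embryos. Among the knockout embryos, Y-linked reads, library label and tissue make-up cannot be told apart.

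Cyp26c1 (NM_001105201, chromosome 19, 37760071 to 37767888), which lies beside Cyp26a1 on the same strand, varied most between embryos. It was at 22.3, 11.9, 55.3 and 13.8 CPM in the wild-type and at 30.4, 43.4, 21.2 and 41.2 CPM in the knockout. The wild-type range spanned 4.65-fold and enclosed all knockout values, as wild-type embryo 3 was the highest and wild-type embryo 2 the lowest of the 8. The log2 fold change was 0.40 (95% interval -0.60 to 1.40, edgeR FDR 0.685). It was 1.09 without wild-type embryo 3 (FDR 0.0654), 0.16 without wild-type embryo 2 (FDR 0.895) and 0.19 without wild-type embryo 4 (FDR 0.880).

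Cyp26a1 (NM_007811, chromosome 19, 37772298 to 37776018), the clearance gene whose promoter window holds a repeat, was at 11.3, 10.8, 20.5 and 9.54 CPM in the wild-type and at 11.0, 12.1, 10.8 and 14.8 CPM in the knockout. Wild-type embryo 3 was again the highest, and the other 7 embryos lay between 9.54 and 14.8 CPM. The log2 fold change was -0.10 (95% interval -0.62 to 0.42, edgeR FDR 0.853) and turned to 0.20 without wild-type embryo 3 (FDR 0.409).

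The make-up of the clearance family was described per length. Cyp26c1 made up 46.3% to 71.9% of the summed RPKM of the 3 Cyp26 genes in wild-type embryos and 54.3% to 72.3% in knockout embryos. Cyp26a1 held 23.3% to 36.9% and 17.6% to 24.1%, and Cyp26b1 held 4.80% to 25.2% and 10.1% to 21.6%. The sum ran from 9.42 to 29.0 RPKM in wild-type and from 15.1 to 25.0 RPKM in knockout embryos. Set against it, the ratio of Aldh1a2 RPKM to the summed Cyp26 RPKM was 1.07, 3.13, 0.283 and 1.80 in the wild-type, compared with 0.705, 0.557, 1.27 and 0.755 for the knockout. Wild-type embryo 2 had the highest ratio and wild-type embryo 3 the lowest, with all 4 knockout embryos between them.

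**Figure D3:**
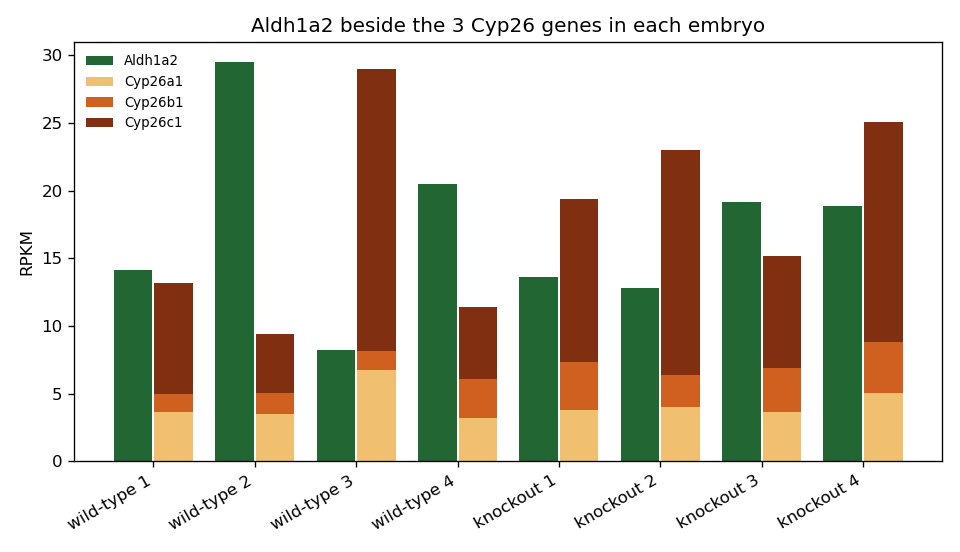
RPKM of Aldh1a2 (green) and of the 3 Cyp26 genes (stacked) in each embryo. Wild-type embryo 2 has the tallest Aldh1a2 bar (29.5 RPKM) and the lowest Cyp26 stack (9.42 RPKM), and wild-type embryo 3 has the reverse (8.20 and 29.0 RPKM).

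Crabp2 (NM_007759, chromosome 3, 87752588 to 87757298), the carrier of retinoic acid, was at 462, 553, 196 and 472 CPM in the wild-type and at 396, 315, 530 and 421 CPM in the knockout. Wild-type embryo 3 was the lowest of all and the other 7 ranged from 315 to 553 CPM. The means were 421 ± 155 and 416 ± 88.8 CPM (SD, n = 4), and the log2 fold change was -0.02 (95% interval -0.63 to 0.60, edgeR FDR 0.978), and -0.26 without wild-type embryo 3 (FDR 0.338). The sign of this small value changed with the setting.

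The receptors are the transcription factors that bind retinoic acid. Rara (NM_001177302, chromosome 11, 98789132 to 98836256) was at 30.1, 38.4, 34.8 and 31.1 CPM in the wild-type and at 40.1, 32.4, 37.6 and 38.0 CPM in the knockout, a log2 fold change of 0.14 (95% interval -0.09 to 0.37, edgeR FDR 0.509). Rarg (NM_011244, chromosome 15, 102065369 to 102087948) was at 28.8, 34.2, 38.7 and 29.0 CPM and at 34.6, 33.2, 33.4 and 42.8 CPM, a log2 fold change of 0.14 (95% interval -0.14 to 0.41, FDR 0.601). Both groups of each gene overlapped widely, and the upper ends of the intervals lie below a 1.5-fold change.

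Rarb (NM_011243, chromosome 14, 17263356 to 17651381), the receptor gene with the repeat in its promoter and a classical target of the signal, was at 35.8, 47.1, 32.3 and 45.0 CPM in the wild-type and at 36.0, 30.1, 47.0 and 43.1 CPM in the knockout. Each genotype held low and high embryos, and the log2 fold change was -0.04 (95% interval -0.40 to 0.32, edgeR FDR 0.922). The 3 receptors shared their summed RPKM nearly evenly: Rarb held 31.3% to 43.8% in wild-type and 32.3% to 40.8% in knockout embryos, Rarg 29.0% to 38.5% and 29.8% to 36.6%, and Rara 27.2% to 30.2% and 28.1% to 33.5%. Transcripts of a receptor gene shared most of their reads, and the least counted transcript of Rara, Rarb and Rarg held 92.1%, 91.5% and 99.3% of the reads of the one used, so isoforms could not be told apart.

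Spread between embryos was larger for Crabp2 and for the enzymes other than Rdh10 than for the receptors. Among 11038 tested genes with a mean of at least 5 CPM, the SD of log2 CPM over the 8 embryos had a median of 0.15. It was 0.80 for Cyp26c1, 0.60 for Cyp26b1, 0.57 for Dhrs3, 0.56 for Aldh1a2 and 0.49 for Crabp2, which placed these 5 above 95.9% to 98.5% of the genes. Cyp26a1 was above 91.7% and Rdh10 above 79.7% of the genes. The SD was 0.25 for Rarb, 0.19 for Rarg and 0.16 for Rara, above 82.2%, 66.3% and 50.7% of the genes. For 9 of the 10 genes the SD of log2 CPM was larger in the wild-type than in the knockout group, against 55.6% of these genes, with Rarb as the exception. This spread was described without a test.

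Wild-type embryo 3 stood at an end of the range for 6 of the 10 genes, and the same count over all genes was not made. Of the 8 embryos it was the highest for Rdh10, Cyp26a1 and Cyp26c1 and the lowest for Aldh1a2, Dhrs3 and Crabp2. Beside these values, its summed blood markers were 356 CPM against 1136 to 2297 CPM in the other wild-type embryos, its yolk sac endoderm markers 3097 against 349 to 1770 CPM, its heart muscle markers 2026 against 2715 to 3143 CPM and its pharyngeal mesoderm markers 73.9 against 43.3 to 48.9 CPM. The part of tissue make-up in the retinoic acid genes was not tested. Without this embryo 490 genes in place of 137 passed the FDR, and 0 of the 10 members.

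The genes most like Cyp26c1 across the 8 embryos were found by the root mean square difference of centred log2 CPM over 11037 genes. They were Fst, which encodes the activin-binding protein follistatin (0.29), Hlf, a bZIP transcription factor gene (0.30), the forkhead gene Foxl2 (0.34), the T-box gene Tbx1 of the pharynx (0.37) and Vgll3, a cofactor gene of TEAD factors (0.38). Tbx1 was at 9.01, 7.32, 25.5 and 9.43 CPM in the wild-type and at 27.1, 24.6, 14.2 and 35.0 CPM in the knockout (log2 fold change 0.98, edgeR FDR 0.248). Like Cyp26c1, all 5 were above their own mean in wild-type embryo 3 and knockout embryo 2 and below it in wild-type embryos 2 and 4. This follows from their choice by likeness over the same embryos. The difference was 0.53 for Cyp26a1 and 1.22 for Aldh1a2. None of the 5 passed the FDR, and neither did Cyp26c1, whose profile they were chosen to match.

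**Figure D4:**
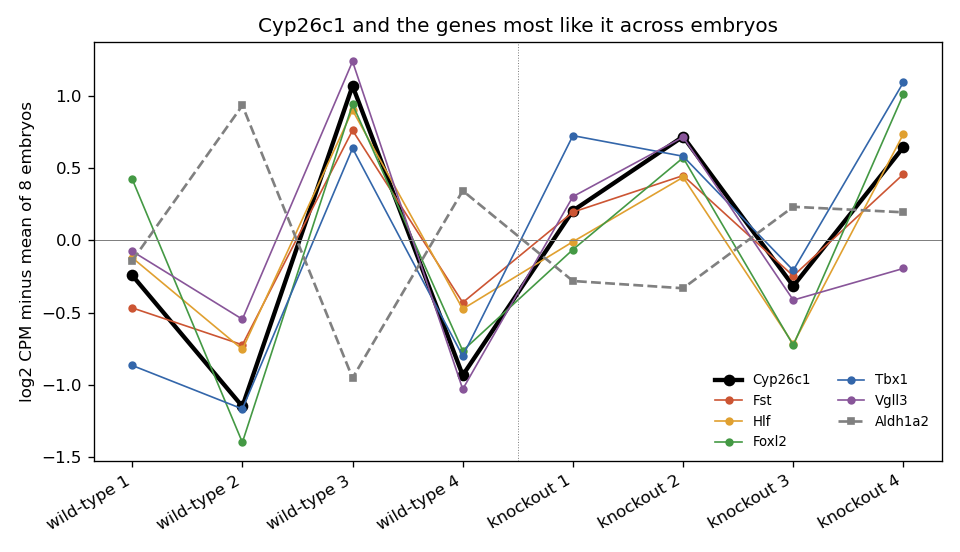
Log2 CPM minus the mean of the 8 embryos for Cyp26c1 (black), the 5 genes most like it (colours) and Aldh1a2 (dashed); embryos have no order and lines only join points of a gene. The black and coloured lines are high in wild-type embryo 3 and low in wild-type embryos 2 and 4, while Aldh1a2 is lowest in wild-type embryo 3 and highest in wild-type embryo 2.

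Other genes of the pathway were taken from 4 lists, 62 genes in all, of which 52 passed the filter on low counts. Of these, 0 passed the edgeR FDR, 6 had an unadjusted p-value under 0.05, each with a higher estimate in the knockout, against 17.4% of all genes, and DESeq2 called 0. Of 7 tested genes for retinoid supply and binding, 6 had higher and 1 lower estimates. Crabp1, the second carrier, was at 263 to 486 CPM in wild-type and at 399 to 576 CPM in knockout embryos (log2 fold change 0.27, FDR 0.464). Of 12 other retinol and retinaldehyde enzymes, 8 had higher and 4 lower estimates, and 2 passed the 1.5-fold and unadjusted p thresholds. These were the only 2 of the 52 tested genes of the lists to pass them, against 3.93% of all genes.

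Rdh12, which encodes a retinaldehyde reductase known from the retina, came closest to the threshold. It was at 1.42, 1.64, 1.64 and 1.44 CPM in the wild-type and at 2.13, 2.61, 2.82 and 2.45 CPM in the knockout, without overlap. Of the 52 tested genes of the lists, 1 did not overlap, against 10.3% of all genes. The log2 fold change was 0.70 (95% interval 0.31 to 1.09, edgeR FDR 0.093), and Rdh12 passed only under limma on log2(RPKM + 1). Adh1, a cytosolic alcohol dehydrogenase gene, was at 0.266 to 0.621 CPM and at 0.290 to 1.73 CPM and overlapped (FDR 0.199). Of 12 receptor partners and cofactors, 10 had higher and 2 lower estimates. Rxra, the main partner of the receptors in the heart, was at 58.7 to 80.3 CPM in wild-type and at 62.8 to 70.6 CPM in knockout embryos (log2 fold change 0.05, 95% interval -0.18 to 0.27, FDR 0.839). Zmynd8, a chromatin reader gene, had the smallest p of this list (log2 fold change 0.19, FDR 0.268).

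Genes known to respond to retinoic acid were examined as a readout of the signal. Of the 22 listed, 21 were tested and 0 passed the edgeR FDR, 3 had an unadjusted p-value under 0.05 (Hoxb3, Hoxb2 and Rarres2) against 17.4% of all genes, and DESeq2 and limma also called 0. All 21 estimates were above 0, also with the other size factors, DESeq2 and limma, and their median log2 fold change was 0.21 against 0.01 over all genes. One of them was Fgf8, which retinoic acid is known to repress, so a higher estimate there reads the other way. The 10 members were not in this list. Their estimates were higher for 5 and lower for 5, with Rarb at -0.04 and Cyp26a1 at -0.10, the members with a repeat in the promoter window. The median was 0.10 with Y-linked reads as a term, 0.12 without wild-type embryo 1 and 0.37 without wild-type embryo 2. The count was 17 higher and 4 lower with Y-linked reads as a term and 15 higher and 6 lower without wild-type embryo 3, and it was 17 to 21 higher without any 1 of the other embryos. Hox genes overlap in expression along the axis and are not independent of each other. The list was also chosen with earlier results of these data known. For both reasons this count is no test.

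**Figure D5:**
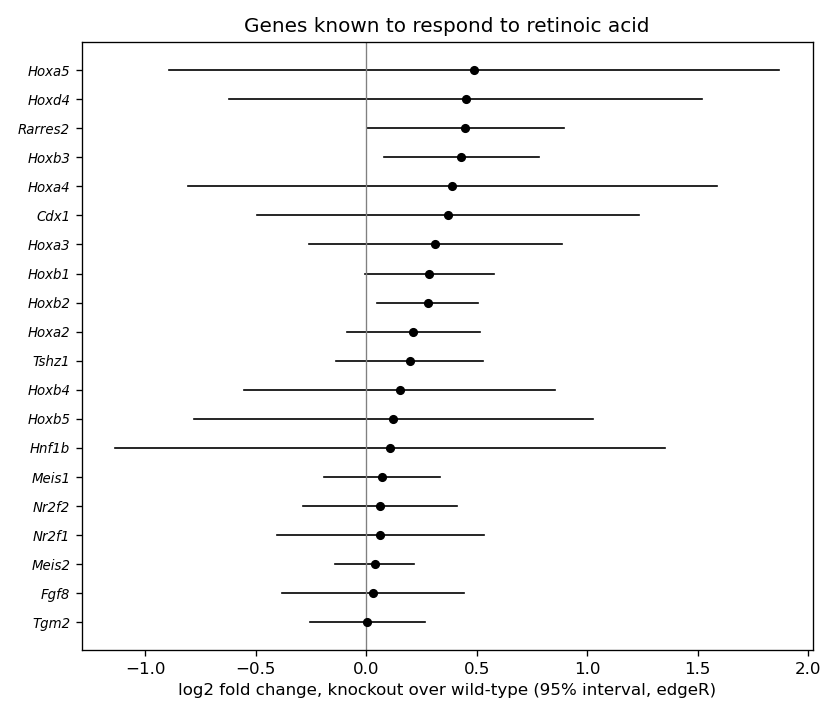
Log2 fold change, knockout over wild-type, with 95% intervals (edgeR, n = 4 embryos each) of tested genes known to respond to retinoic acid, other than a gene not reported here. The points shown lie between 0.00 and 0.49, and the intervals of Hoxb3, Hoxb2 and Rarres2 lie above 0.

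The anterior Hox genes, which give cells their position along the body axis, were read in every embryo. Hoxb1 was at 16.6, 25.5, 22.1 and 22.7 CPM in the wild-type and at 25.9, 24.6, 25.6 and 29.9 CPM in the knockout (log2 fold change 0.29, edgeR FDR 0.295). Hoxb3 had a log2 fold change of 0.43 (FDR 0.209) and Hoxb2 of 0.28 (FDR 0.211). Wild-type embryo 1 had the lowest value of the 8 for all 3 of these genes. Its summed somite markers (52.5 CPM) and tail bud markers (11.6 CPM) were the lowest too, and their part in the Hox levels was not tested.

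Fgf8, a growth factor gene that retinoic acid is known to repress, was at 6.38 to 11.5 CPM in wild-type and at 7.63 to 10.9 CPM in knockout embryos (log2 fold change 0.03, 95% interval -0.38 to 0.44, edgeR FDR 0.947). Rarres2, which encodes the chemoattractant chemerin, had a log2 fold change of 0.45 (FDR 0.286). Tbx5, a T-box gene of the heart and its inflow part, was at 28.9, 30.4, 23.9 and 30.8 CPM in the wild-type and at 14.3, 10.2, 13.6 and 12.6 CPM in the knockout, without overlap, and fell by 1.17 on the log2 scale (edgeR FDR 0.00304). The 5 heart muscle markers fell too, with log2 fold changes from -0.79 for Myl7 to -1.40 for Nkx2-5. Tbx5 was listed as a marker of the venous pole, whose other 4 genes, Osr1, Foxf1, Tbx18 and Wt1, did not pass.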

How the data were processed

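Pharyngeal mesoderm and hearts of 8 embryos were profiled. The authors mapped reads to mm9 with STAR (intron limits 20 and 500000) and counted them over exons of RefSeq transcripts with HOMER on both strands, and the deposited values used here were these raw counts. The deposited RPKM values were computed by the authors with edgeR from the same counts. Deposited columns with fold changes and p-values of the authors' own comparison were not used. The versions of STAR, HOMER and edgeR used by the authors were not given in the sources used here.

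Of 31507 transcript rows, 1 per symbol was kept (highest summed count). In R 4.3.3, edgeR 4.0.16 (filterByExpr, TMM, quasi-likelihood test on genotype, two-sided, Benjamini-Hochberg adjustment over 14075 genes) gave all main values. CPM were scaled by TMM, and 95% intervals came from the standard error of the log2 fold change. DESeq2 1.42.0 and limma 3.58.1 (trend) were alternatives, with size factors, no filter, the longest transcript, a replicate block, Y-linked reads as a term, pseudocounts of 1 and 0.1 on RPKM, and each embryo left out. Gene positions came from GENCODE vM1 on NCBIM37 (mm9). Promoter windows came from RefSeq on GRCm38.p6, and the builds were not combined. Tables and plots used Python 3.11.15, pandas 2.3.3, numpy 2.4.6 and matplotlib 3.10.9. Reads had no molecular identifiers, so depth covers counting error only, and without strand, reads of overlapping antisense genes cannot be told apart.

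The members and lists were chosen with earlier results of these data known. Named genes were the 10 members, the 6 listed pathway genes with the smallest p, Rxra, Crabp1, Hoxb1, Tbx5, Fgf8 and Isl1, and the 5 genes most like the member with the largest spread among those with a mean of at least 5 CPM. A further gene of this rule, counted in its list, is not reported here.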

Additional observations from a re-analysis of the deposited data

Results flagged for a closer look

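Embryos far from the others of their group were looked for in both genotypes of 22 named genes (not Isl1 and the 5 genes most like Cyp26c1), 44 groups of 4, by Dixon's gap test at the 95% level, and chance gives about 1 in 20 such groups. There were 3. Cyp26a1 was at 20.5 CPM in wild-type embryo 3 against 9.54 to 11.3 CPM in the other wild-type embryos. Rarg was at 42.8 CPM in knockout embryo 4 against 33.2 to 34.6 CPM, and Rxra at 62.8 CPM in knockout embryo 3 against 69.4 to 70.6 CPM in the other knockout embryos.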

How the results depend on the processing

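Of the 14075 genes, 137 passed the FDR in the reported fit, 709 with DESeq2 and 76 with the replicate block. Without an embryo the count ran from 70 to 490 (73, 85, 490 and 85 without wild-type embryos 1 to 4, 81 and 70 without knockout embryos 1 and 4). The 1.5-fold and unadjusted p thresholds took 553 genes, and 115 under limma on log2(RPKM + 1). Members past the FDR were 0, 1 with DESeq2 (Cyp26b1, log2 fold change 0.81) and 0 to 1 without an embryo. Members past the 1.5-fold thresholds were 1, 0 with Y-linked reads as a term, 1 to 2 without an embryo, and 2 (Cyp26c1 and Dhrs3) without both wild-type embryos 2 and 3, an alternative chosen after seeing the data. Of the pathway lists 0 passed, 1 (Rdh12) under limma on log2(RPKM + 1), and 0 to 1 without an embryo (Zmynd8 without wild-type embryo 3).

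Signs changed for Cyp26a1, Crabp2 and Rarb, whose estimates were near 0. The sign of Aldh1a2, with an estimate of -0.23 in the reported fit, changed without wild-type embryo 2. Cyp26a1 turned to 0.056 with Y-linked reads as a term, to 0.0025 and 0.011 under limma with pseudocounts of 1 and 0.1, and to 0.23 without both wild-type embryos 2 and 3. Crabp2 turned to 0.039 with the replicate block and to 0.11 under limma with either pseudocount. Rarb turned to 0.0152 and 0.0165 under limma. Without an embryo, Aldh1a2 ran from -0.47 to 0.13, Crabp2 from -0.26 to 0.14, Cyp26a1 from -0.23 to 0.20, Rarb from -0.14 to 0.073, Cyp26c1 from 0.16 to 1.09 and Cyp26b1 from 0.68 to 1.11. The cause was not tested. Same-numbered embryos deviated together at correlations of 0.124, 0.195, 0.0355 and 0.559 across genes, with a mean of 0.229. Of 8 embryos, 2 correlated best with their own number, which does not settle whether the numbers pair the embryos. The replicate block changed no call of a member. Dhrs3 had the fewest reads, 79 to 181 per library, and its CV was 44.6% over wild-type and 31.1% over knockout embryos.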

Other observations

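Some listed pathway genes that the rule did not name differed widely between embryos within a genotype; they were picked out after their values were seen. Aldh1a3, which encodes another retinaldehyde dehydrogenase, was at 0.801 CPM in wild-type embryo 3 against 14.6 to 17.7 CPM in the other wild-type embryos and 6.80 to 20.6 CPM in the knockout embryos (edgeR FDR 0.897). Rbp4, which encodes the carrier of retinol in plasma, was at 94.1, 147, 234 and 44.6 CPM in the wild-type and at 37.6, 326, 299.7 and 68.5 CPM in the knockout (FDR 0.749). Ttr, whose protein binds that carrier, was high in the same embryos, at 84.8, 144, 270 and 41.7 CPM and at 36.5, 327, 282 and 50.4 CPM (FDR 0.831). Bco1, which encodes the enzyme that cleaves carotene to retinaldehyde, was at 8.34 CPM in wild-type embryo 3, 12.6 CPM in knockout embryo 2 and 7.84 CPM in knockout embryo 3, and at 0.541 to 4.04 CPM in the other embryos (FDR 0.800). Wild-type embryo 3 and knockout embryos 2 and 3 also had the highest summed yolk sac endoderm markers, 3097, 4552 and 3120 CPM, a list that holds Ttr itself. Their part in these levels was not tested.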
